A study of Rattus norvegicus with 69 samples.

Results

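Gene expression in blood was compared between rats that had inhaled printer-emitted particles (PEPs) and rats that had inhaled filtered air, on day 1 of exposure. The arrays were chosen by their labels as the 5 titled PEP_D1 and the 5 titled Air_D1, which are 10 of the 69 arrays of the series, and every probe set on them was taken. The whole series sampled both arms on 6 days up to day 21, with a further set of day 21 rats that carried a telemetry implant. The animals were male Sprague-Dawley rats, 9 weeks old by their labels. The exposed rats breathed, with the whole body, particles together with the gases from laser printer B1 for 5 h per day, so that particles and gases cannot be told apart. The air rats breathed air passed through a HEPA filter in the same system. Each rat sat alone in its chamber, and both arms had been accustomed to the chambers beforehand. The labels state that the exposure was carried out in separate years but not which array belongs to which, so that a difference between runs cannot be told apart from a difference between arms if the arms were split unevenly. Replicates are numbered in the labels with no year or cage, and the tests measure the spread between these arrays.

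Blood carries red cells, platelets and several classes of white cells, and each contributes its own transcripts. Platelets have no nucleus and hold RNA handed down by the megakaryocyte, including messages for the glycoprotein Ib-IX-V complex that binds von Willebrand factor, for the fibrinogen receptor and for the contents of their granules. Chaperones of the Hsp70, Hsp90 and chaperonin families fold proteins in every cell, and several are induced by the transcription factor Hsf1 under proteotoxic stress. A change in a transcript of whole blood can come from the number of cells or from the RNA in each: fewer cells of a type and less RNA per cell cannot be told apart here.

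The deposited values are log2 intensities, and a difference of 1 is a 2-fold change. Each array held 36685 probe sets, of which 34176 were tested, and these covered 13586 genes named by 1 symbol. The arrays matched their label as blood: the mean of 10 erythroid genes lay between 8.88 and 9.75 on the 10 arrays, while the mean of 7 lung epithelium genes lay between 2.47 and 2.74, close to the median of all probe sets on an array (2.50 to 2.78). Air replicate 2 stood apart. Its lower quartile was 1.80 against 1.48 to 1.53 on the other 4 air arrays, its mean correlation with the rest of its group was 0.916 (0.948 to 0.95 on the others), and of 41 gene list means it was the lowest of the 10 arrays in 27. PEPs replicate 5 also had a raised lower quartile (1.74) and was the lowest exposed array in 20 of the list means. The lower quartile did not separate the arms with all 10 arrays (exact permutation test, 2-sided, p = 0.548 over 252 regroupings), while without air replicate 2 it was higher in the exposed arm by 0.0918 (exact permutation p = 0.0238 over 126 regroupings). The weighted linear fit (limma) gave air replicate 2 a weight of 0.229 and PEPs replicate 5 a weight of 0.452, against 0.799 to 1.12 for the others. A fitted difference therefore lies nearer to the difference of the other arrays than to that of the plain means. Values without air replicate 2 are given beside the platelet results and some of the others.

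On day 1 none of the probe sets had an adjusted p under 0.05 (0% of 34176 passed; limma with Benjamini-Hochberg adjustment), and 2251 had an unadjusted p under 0.05 (6.59%). Without air replicate 2, 2 probe sets passed (0.00585%), which held identical values on every array and have no gene name here. Among genes, 499 were higher and 505 lower at an unadjusted p under 0.05 (3.67% and 3.72% of those tested). Differences of 1.5-fold or more numbered 203 genes higher in the exposed rats (1.49%) and 138 lower (1.02%), or 190 and 177 without air replicate 2 (1.4% and 1.3%). In 78 genes all 5 exposed arrays lay above all 5 air arrays (0.574%), and in 41 all lay below (0.302%). Without air replicate 2, which leaves fewer arrays to overlap, these numbers were 178 (1.31%) and 240 (1.77%). The median difference over all genes was 0.00. In simulated data, 14% of 1.5-fold, 48% of 2-fold and 90% of 3-fold changes were recovered among 34176 probe sets, with 8 false calls. Most 1.5-fold and many 2-fold changes were missed there, and differences of that size can be missed at this number of arrays. Recovery on the real arrays, which differ in weight, was not tested. Every difference below is given on the log2 scale as exposed minus air ± standard error, with 5 arrays per arm.

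The genes that differed most on day 1 were taken from those with a mean log2 value of at least 4, an unadjusted p under 0.05 and no overlap between arms, which left 23 higher and 18 lower genes, and the 10 largest in each direction are named. Of the 10 higher genes, Gp5, Cd151 and Pear1 are platelet adhesion proteins. Slc6a4, the serotonin transporter with which platelets take up serotonin from plasma, read 7.80, 4.75, 7.79, 7.96 and 7.83 in air replicates 1 to 5 and 8.61, 8.71, 8.68, 8.33 and 8.91 in the exposed rats. The 4 air arrays other than replicate 2 lay close together, and all 5 exposed arrays were above them (0.94 ± 0.33, 1.91-fold, adjusted p = 0.678, 0.77 ± 0.31 without air replicate 2). Muc20, a membrane mucin, gave the largest difference of the 10, 1.18 ± 0.37 (2.27-fold, adjusted p = 0.598). Its air values were 5.68, 2.33, 6.18, 6.50 and 5.49 and its exposed values 6.74, 7.19, 6.95, 6.82 and 6.99, so that the difference fell to 0.99 ± 0.34 without air replicate 2. Map1b, a microtubule-associated protein, differed by 1.00 ± 0.37, with air values of 4.14, 4.16, 4.19, 4.54 and 4.55 and exposed values of 5.58, 4.72, 5.38, 5.45 and 5.72. Air replicate 2 did not stand apart for Map1b, and the difference was 0.99 ± 0.37 without it. The other 4 were the vesicle proteins Nsg2 (0.99 ± 0.38) and Sv2a (0.87 ± 0.34), Tmem117 (0.80 ± 0.34) and the adhesion receptor Adgra2 (0.76 ± 0.28).

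The 10 lower genes held no platelet gene. Pigw, the enzyme that adds an acyl chain to inositol during the assembly of glycosylphosphatidylinositol (GPI) anchors, read 5.09, 4.36, 5.54, 4.45 and 5.03 in air and 4.24, 3.63, 4.13, 4.32 and 4.12 after exposure. The highest exposed array and the lowest air array differed little, but the arms did not overlap (−0.92 ± 0.22, adjusted p = 0.342). Gprin3 was lower by 0.88 (−0.88 ± 0.30) and Otud6b, a deubiquitinase, read −0.72 ± 0.23. Nsdhl, an enzyme of cholesterol synthesis, had air values of 4.99, 5.08, 4.94, 4.68 and 4.80 and exposed values of 4.28, 4.58, 4.13, 4.21 and 3.68 (−0.64 ± 0.18). The remaining 6 were Fbxo28 (−0.61 ± 0.17), the lipid kinase Pip4k2c (−0.59 ± 0.18), the co-chaperone Bag3 (−0.57 ± 0.17), Tpd52l2 (−0.54 ± 0.19), cyclin H (Ccnh, −0.54 ± 0.19) and Vps50 of the endosomal recycling machinery (−0.51 ± 0.19). Leaving out air replicate 2 moved each of these 10 by less than its standard error.

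The leading feature of the day was a set of platelet transcripts with higher readings in the exposed rats. Of 13 platelet adhesion receptor genes listed, 8 were measured with 1 symbol. All 8 were higher with a median of 0.79 (all genes 0.00), 8 had an unadjusted p under 0.05 (3.67% of genes, higher) and none passed after adjustment. All 8 are named in the published account of day 1 blood, which picked its genes by fold from these samples. The direction and the counts of these 8 genes are therefore no independent evidence. In 4 of the 8 (Gp5, Gp1ba, Pear1 and Cd151) the arms did not overlap (0.574% of all genes, higher). The mean of the 8 genes per array was 8.02, 4.99, 8.57, 8.71 and 8.21 in air and 8.89, 9.25, 9.03, 8.71 and 9.21 after exposure. Air replicate 2 lay far below every other array of the comparison, and air replicate 4 reached the lowest exposed array. Without air replicate 2 the median was 0.59, and 5 of the 8 had an unadjusted p under 0.05 (3.8% of genes, higher).

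**Figure D1:**
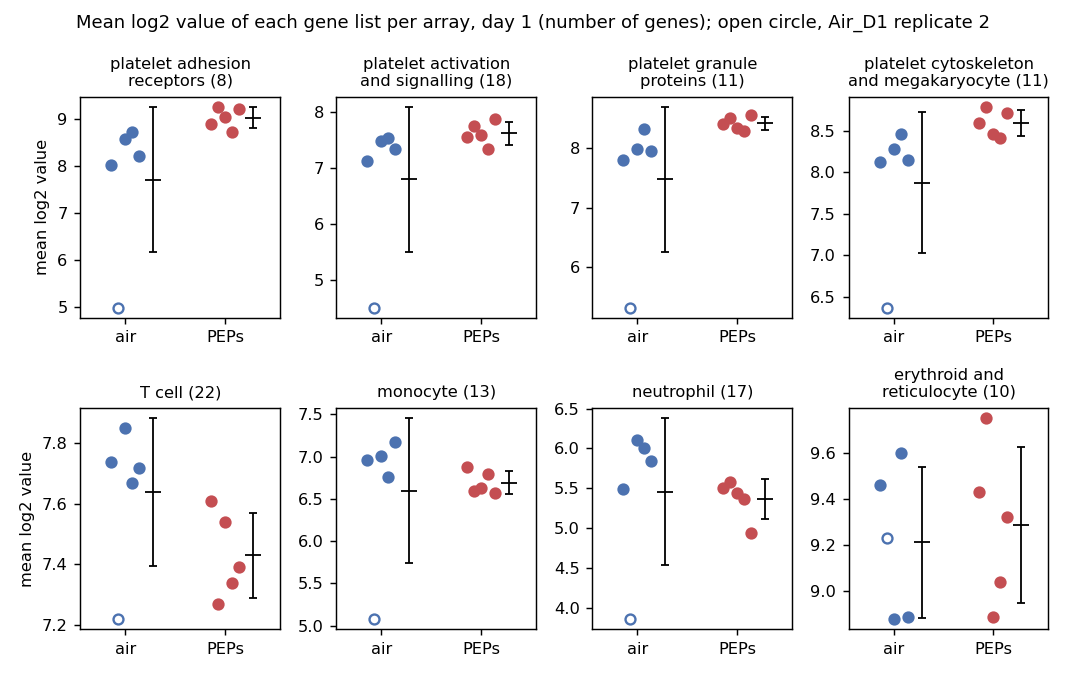
Mean log2 value of the genes of 8 lists on each day 1 array, with air in blue, PEPs in red, air replicate 2 as an open circle and bars for the mean ± SD of 5 arrays. Air replicate 2 (adhesion mean 4.99) is the lowest array of the platelet, T cell, monocyte and neutrophil panels, and the remaining air arrays lie mostly below the exposed arrays in the platelet panels and mostly above them in the T cell, monocyte and neutrophil panels.

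The glycoprotein Ib-IX-V complex was represented by 3 subunits. Gp5 read 8.88, 4.73, 9.31, 9.31 and 8.69 in air and 9.73, 9.95, 9.94, 9.34 and 10.04 after exposure. The lowest exposed array was just above the highest air arrays, and the fitted difference was 0.96 ± 0.33 (1.94-fold, adjusted p = 0.662), or 0.73 ± 0.28 without air replicate 2. Gp1ba, the subunit that binds von Willebrand factor, read 8.60, 5.12, 8.96, 9.09 and 8.61 in air and 9.34, 9.49, 9.35, 9.18 and 9.52 after exposure. Again no exposed array reached down into the air arm (0.75 ± 0.28, adjusted p = 0.68, 0.56 ± 0.23 without air replicate 2). Gp9 differed by 0.82 ± 0.30 (0.63 without air replicate 2), with 1 exposed array (10.31) below the highest air array (10.36). Gp1bb, the remaining subunit, shares its probe set with a neighbouring gene and was not used.

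Pear1, a receptor that signals on contact between platelets, was the adhesion gene that depended least on air replicate 2. Its air values were 5.12, 5.32, 5.69, 5.94 and 5.75 and its exposed values 6.28, 7.04, 6.39, 6.32 and 6.77, with air replicate 2 inside its group. The difference was 0.94 ± 0.29 (1.92-fold, adjusted p = 0.574) with all arrays and 0.92 ± 0.29 without that array. The tetraspanins Cd151 and Cd9 differed by 0.97 ± 0.34 and 0.73 ± 0.34, von Willebrand factor itself (Vwf) by 0.66 ± 0.28 and the integrin chain Itgb3 of the fibrinogen receptor by 0.63 ± 0.30. These values were 0.79, 0.49, 0.48 and 0.43 without air replicate 2. For Cd9, Vwf and Itgb3 air replicate 2 (4.53, 3.84 and 5.65) was far below the next air array (8.59, 6.58 and 9.21), and the arms overlapped.

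**Figure D2:**
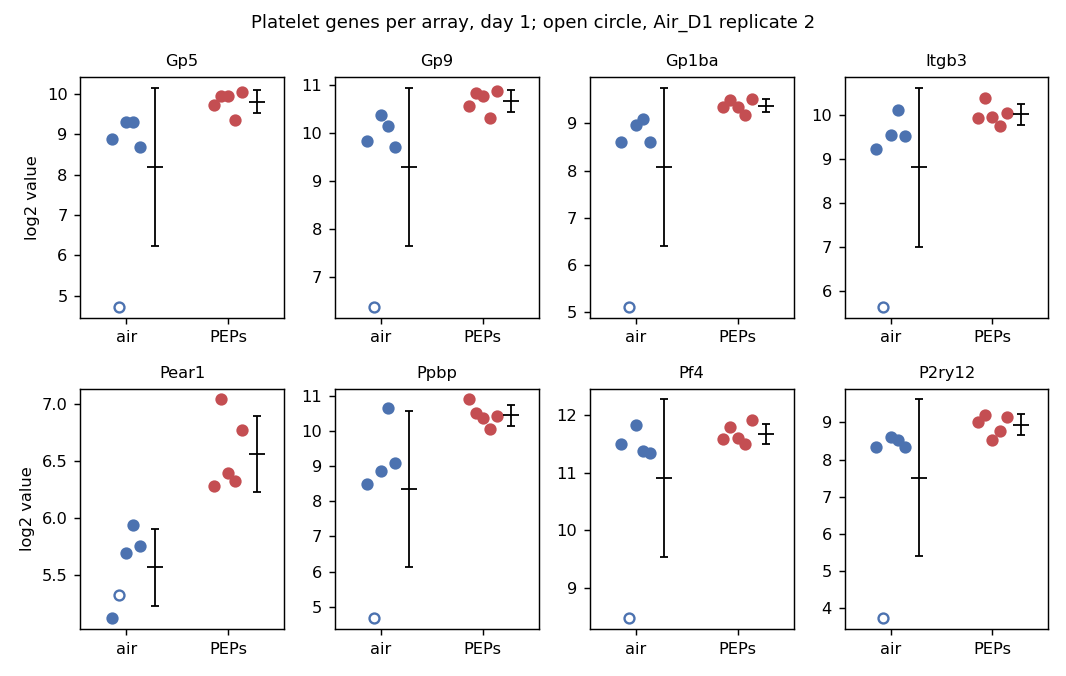
Log2 values of 8 platelet genes on each day 1 array, with air in blue, PEPs in red, air replicate 2 as an open circle and bars for the mean ± SD of 5 arrays. For Pear1 air replicate 2 (5.32) sits inside the air group, while for the other 7 genes it is the lowest array (4.73 for Gp5 and 8.47 for Pf4).

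Receptors and signalling proteins of platelet activation followed with a median of 0.57 over 18 of 19 genes, 15 of them higher. An unadjusted p under 0.05 was reached by 9 higher and 2 lower genes (3.67% and 3.72% of all genes). Without air replicate 2 it was reached by 1 higher and 2 lower genes (3.8% and 4.78% of all genes), so that the share of higher genes was then near that of all genes, and the median was 0.36. P2ry12, the ADP receptor, read 8.33, 3.74, 8.61, 8.52 and 8.34 in air and 9.01, 9.20, 8.54, 8.77 and 9.16 after exposure. PEPs replicate 3 lay among the air arrays, and the difference of 0.72 ± 0.34 became 0.48 ± 0.28 without air replicate 2. The ATP channel P2rx1 (0.75 ± 0.33), the inhibitory receptor Mpig6b (0.81 ± 0.35), Treml1 (0.77 ± 0.35), the lipoxygenase Alox12 (0.77 ± 0.34), cyclooxygenase 1 (Ptgs1, 0.63 ± 0.31), the guanylate cyclase chain Gucy1a1 (0.66 ± 0.32) and the phosphatase Ptpn11 (0.65 ± 0.25) had differences of similar size. They became 0.53 (P2rx1), 0.58 (Mpig6b), 0.50 (Treml1), 0.53 (Alox12), 0.38 (Ptgs1), 0.47 (Gucy1a1) and 0.54 (Ptpn11) without air replicate 2. The thrombin receptors went in opposite directions. F2rl2, used by mouse platelets as a cofactor for thrombin, was at 0.71 ± 0.33 (0.46 without air replicate 2), whereas F2r, the main thrombin receptor of human platelets, was at −0.73 ± 0.25 (adjusted p = 0.662). F2r read 4.78, 3.26, 4.74, 5.35 and 5.03 in air and 3.78, 4.19, 4.51, 4.45 and 3.54 after exposure. Apart from air replicate 2, every air array was above every exposed array, and the difference without it was −0.82 ± 0.24. Mapk13, a p38 kinase, was likewise lower (−0.66 ± 0.29).

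Granule proteins gave the largest single difference and some of the smallest. All 11 of the 14 listed genes that were measured were higher, with a median of 0.48 (0.31 without air replicate 2), and 4 had an unadjusted p under 0.05 (3.67% of all genes, higher). Without that array 1 of the 11 had one, near the share of all genes (3.8%). Ppbp, which encodes the precursor of platelet basic protein and of the neutrophil-attracting chemokine made from it, read 8.48, 4.68, 8.86, 10.66 and 9.09 in air and 10.89, 10.50, 10.35, 10.04 and 10.41 after exposure. Air replicate 4 lay within the exposed range while the other 4 air arrays were below all exposed arrays, and the difference was 1.47 ± 0.51 (2.77-fold, adjusted p = 0.662), or 1.24 ± 0.48 without air replicate 2. Pf4, the other main granule chemokine, read 11.49, 8.47, 11.82, 11.38 and 11.34 in air and 11.58, 11.80, 11.60, 11.49 and 11.91 after exposure. Apart from air replicate 2 the arms overlapped over nearly their whole range, and the difference was 0.30 ± 0.28 (0.14 ± 0.25 without it). Mmrn1 (0.65 ± 0.30), Timp3 (0.74 ± 0.35) and Nrgn (0.47 ± 0.23) lay between, and the transglutaminase F13a1 was at 0.48 ± 0.34. Leaving out air replicate 2 gave 0.43 for Mmrn1, 0.65 for Timp3, 0.31 for Nrgn and 0.25 for F13a1.

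Among 11 of 16 cytoskeletal genes and megakaryocyte factors, 10 were higher (median 0.52, or 0.36 without air replicate 2), and 2 had an unadjusted p under 0.05 with or without that array (3.67% and 3.8% of all genes, higher). Tubb2a, a beta tubulin, differed by 0.99 ± 0.35 and Tal1, a transcription factor of the megakaryocyte and erythroid lineages, by 0.59 ± 0.23. Actn1 (0.62 ± 0.31), Vcl (0.62 ± 0.32), Rgs18 (0.54 ± 0.28) and Myl9 (0.52 ± 0.29) were at smaller values. The values without air replicate 2 were 0.86 for Tubb2a, 0.53 for Tal1, 0.57 for Actn1, 0.44 for Vcl, 0.36 for Rgs18 and 0.32 for Myl9. Rgs18 alone of the 11 had no overlap between arms (0.574% of all genes, higher).

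Over all 48 platelet genes of the 4 lists, 44 were higher with a median of 0.60. In 43 of the 48 air replicate 2 was the lowest of the 10 arrays. Without it the median was 0.42, 43 were higher and 9 rather than 23 had an unadjusted p under 0.05 (3.8% and 3.67% of all genes, higher). The number of genes with all exposed arrays above all air arrays was 5 of 48 in either case, against 0.574% of all genes with air replicate 2 and 1.31% without. Of the 48 genes, 24 had been picked by the study from these samples by fold, and their direction is no independent evidence. The other 24 had a median of 0.38 (0.26 without air replicate 2), with 22 of 24 higher (21 without). They are no independent evidence either. The 4 lists were written with earlier results of these data known, and all their genes were read on the same 10 arrays. The count of genes at 1.5-fold moved with air replicate 2: 25 of the 203 higher genes were platelet genes with all arrays, and 8 of the 190 without it (1.49% and 1.4% of all genes were that much higher). When all arrays were given equal weight, 36 of 303 were. Of the higher genes at 1.5-fold, 160 were in both lists, 78.8% of those with all arrays and 84.2% of those without air replicate 2.

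**Figure D3:**
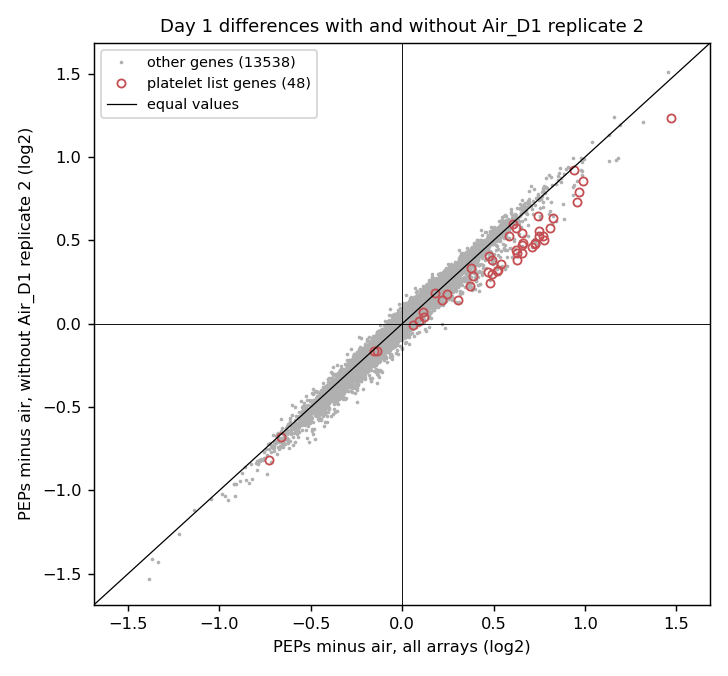
Fitted day 1 difference of each gene with all arrays (x axis, log2) against that without air replicate 2 (y axis, log2), with 48 platelet genes as red rings and 13538 other genes as grey points. Most platelet genes lie below the line of equal values but above 0 on both axes, and their median is 0.60 on the x axis and 0.42 on the y axis.

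Most genes of the T cell, NK, monocyte and neutrophil lists had lower values after exposure, and none passed after adjustment. Brighter genes as a whole were lower too: of the 5461 genes with a mean log2 value of at least 4, 65.4% were lower with a median of −0.08, and 7.2% were lower at an unadjusted p under 0.05. All 22 measured T cell genes of 26 had a lower value, with a median of −0.27, and 7 of them had an unadjusted p under 0.05 (3.72% of all genes, lower). All 22 were among the brighter genes. The list mean per array was 7.74, 7.22, 7.85, 7.67 and 7.72 in air and 7.61, 7.27, 7.54, 7.34 and 7.39 after exposure. Air replicate 2 was here the lowest of all arrays, against the direction of the difference, and the other 4 air arrays were above all 5 exposed arrays. Without air replicate 2 the median was −0.31, all 22 genes were lower and 2 had no overlap between arms (1.77% of genes, lower). Themis, a signalling protein of developing T cells, was the T cell gene without overlap: it read 7.63, 7.53, 7.55, 7.65 and 7.77 in air and 7.48, 7.04, 7.10, 7.11 and 7.11 after exposure. PEPs replicate 1 came close to the air arm, and the other 4 exposed arrays lay together well below it (−0.47 ± 0.19, adjusted p = 0.71). The co-receptor Cd4 was at −0.44 ± 0.18, the receptor chain Cd247 at −0.37 ± 0.17, the homing receptor Ccr7 at −0.35 ± 0.17, the costimulator Cd28 at −0.33 ± 0.16 and Cd5 at −0.29 ± 0.14. The CD3 chains and Cd8a had smaller differences, from −0.24 ± 0.22 (Cd3d) to −0.20 ± 0.21 (Cd3g).

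Cytotoxic cells showed values of the same sign. Of 16 NK and cytotoxic genes, 13 were lower (median −0.34), and perforin (Prf1, −0.50 ± 0.22) had an unadjusted p under 0.05 (3.72% of all genes, lower). Prf1 read 8.29, 6.51, 8.36, 7.96 and 7.78 in air and 7.58, 7.27, 7.60, 7.76 and 7.22 after exposure. Apart from air replicate 2 the arms just failed to overlap, and the NK receptors Ncr1 (−0.51 ± 0.27) and Klrd1 (−0.42 ± 0.22) and granzyme A (Gzma, −0.64 ± 0.35) were lower with larger errors. The chemokine receptor Cxcr6, which guides effector T and NK cells, read 4.93, 3.33, 5.25, 4.39 and 5.11 in air and 4.54, 3.51, 2.71, 3.47 and 2.82 after exposure. PEPs replicate 1 lay among the air arrays and air replicate 2 among the exposed ones, and the difference of −1.34 ± 0.33 (2.53-fold lower, adjusted p = 0.342) was the most negative of the 20 chemokine receptors, whose median was −0.06. Cxcr3 was at −0.47 ± 0.24 and Cxcr4 at −0.50 ± 0.23.

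In the myeloid lists 12 of 13 monocyte genes (median −0.20) and 15 of 17 neutrophil genes (median −0.28) were lower, and none had an unadjusted p under 0.05. Of those with a mean of at least 4, 12 of 12 monocyte genes (median −0.21) and 12 of 13 neutrophil genes (median −0.38) were lower. Without air replicate 2 the medians over all measured members were −0.30 and −0.37. Cd14, the co-receptor for bacterial lipopolysaccharide, read 5.52, 3.26, 6.14, 5.83 and 6.30 in air and 5.47, 4.91, 5.35, 5.46 and 5.37 after exposure. Leaving aside air replicate 2, every air array was above every exposed array, and the difference was −0.50 ± 0.27 with all arrays and −0.64 ± 0.25 without it. Csf1r, the receptor that maintains monocytes, was at −0.33 ± 0.23, although its plain means were nearly equal (7.99 in air). Lcn2, an iron-binding granule protein of neutrophils, was at −0.92 ± 0.47 and S100a8 at −0.52 ± 0.38. B cell genes (6 of 10 lower, median −0.06) and erythroid genes (8 of 10 higher, median 0.05) lay nearer to the median of all genes. Of those with a mean of at least 4, 5 of 9 B cell genes (median −0.05) and 2 of 10 erythroid genes (median 0.05) were lower. Among all genes that bright, 65.4% were lower with a median of −0.08.

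Among innate sensors, Tlr6, which pairs with Tlr2 to recognize lipopeptides, read 5.66, 3.38, 5.59, 5.40 and 5.27 in air and 4.96, 4.67, 4.14, 4.12 and 3.88 after exposure. With air replicate 2 set aside the arms did not overlap, as in 1.77% of all genes (lower). The difference was −0.95 ± 0.28 (1.93-fold lower, adjusted p = 0.574) with all arrays and −1.06 ± 0.27 without that array. The Toll-like receptor adaptors differed in sign, with Ticam1 (TRIF) at −0.63 ± 0.23 and Ticam2 (TRAM), a dim gene with a mean log2 value under 4, at 0.76 ± 0.30. The 15 genes of the list had a median of −0.09. The inflammasome receptors Naip6 and Naip5, which detect bacterial proteins in the cytosol, were at 1.13 ± 0.59 and 0.85 ± 0.58. Naip6 read 3.24, 3.48, 2.99, 4.59 and 3.58 in air and 5.48, 3.46, 4.43, 4.91 and 5.46 after exposure. Its arms overlapped in both directions, through air replicate 4 and PEPs replicate 2. Caspase 1 (Casp1), the protease of the inflammasome, was at −0.39 ± 0.17.

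In 6 lists chosen for a response to the inhaled mixture, to stress or to the time of day, no gene passed after adjustment and the medians lay between −0.20 and −0.05. Targets of the aryl hydrocarbon receptor, which senses polycyclic aromatic compounds, had a median of −0.08 over 6 genes, with list means of 2.74 to 3.01 near the array median, and none had an unadjusted p under 0.05. Oxidative stress genes under Nrf2 had a median of −0.05 over 17 genes, and 1 was higher at an unadjusted p under 0.05 (3.67% of all genes, higher). Genes of acute inflammation under NF-kB had a median of −0.06 over 17 genes, of which the inhibitor Nfkbia (−0.36 ± 0.17) was the lower gene with an unadjusted p under 0.05 (3.72% of all genes, lower). Interferon-stimulated genes had a median of −0.09 over 14 genes, and Oasl2 (−0.70 ± 0.33) and Mx1 (−0.43 ± 0.23) were lowest on PEPs replicate 5, which read 5.37 and 6.16 for them. Of 9 glucocorticoid targets 7 were lower (median −0.15), 3 of them at an unadjusted p under 0.05 (3.72% of all genes, lower): Errfi1 (−0.77 ± 0.29), Ddit4 (−0.69 ± 0.31) and Cxcr4. Of 10 clock genes 8 were lower (median −0.20), among them Bhlhe40 at −0.59 ± 0.22 and Dbp at −0.36 ± 0.20, and 1 of the 10 was lower at an unadjusted p under 0.05 (3.72% of all genes, lower). Of all genes 49.4% were lower. Among those with a mean log2 value of at least 4, 7 of 9 clock genes and 3 of 4 glucocorticoid targets were lower, against 65.4% of all genes that bright. Olfactory receptors, best known from the nasal epithelium and read here near background (list means 1.42 to 1.88), were higher for 648 of 1056 genes (median 0.06, against 50.6% of all genes higher). Their list mean was highest on air replicate 2 and PEPs replicate 5 (1.88 and 1.79), the arrays with the raised lower quartile. With 2 components of the olfactory receptor values as covariates the list medians were 0.92 for platelet adhesion, −0.19 for T cell genes and −0.17 for the chaperones described next.

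Chaperones and co-chaperones formed a further group. Their list was added after values had been seen, since several of its members were among the genes with the smallest p, and its counts describe these arrays. Of 53 genes 49 were measured, 39 were lower and the median was −0.23. An unadjusted p under 0.05 was reached by 11 lower and 0 higher genes (3.72% and 3.67% of all genes), 5 were lower by 1.5-fold or more (1.02%) and 1 (Bag3) had no overlap between arms (0.302%). Of the 35 members with a mean of at least 4, 30 were lower with a median of −0.29, and 31.4% were lower at an unadjusted p under 0.05. Among all genes that bright, 65.4% were lower with a median of −0.08, and 7.2% were lower at an unadjusted p under 0.05. The list mean per array was 5.05, 4.82, 5.24, 5.14 and 5.23 in air and 5.04, 4.87, 4.85, 5.02 and 4.81 after exposure. Air replicate 2 lay with the exposed arrays, and the other 4 air arrays were above all of them, by the narrowest of margins in the nearest pair. All 11 genes kept an unadjusted p under 0.05 without air replicate 2, 10 did without PEPs replicate 5, and 9 did with those olfactory receptor components as covariates. The 11 had been picked by that p on these same arrays, and both arrays left out had low weights in the fit. These counts are therefore a description only.

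Chordc1, a partner of Hsp90, read 6.57, 5.88, 6.98, 6.83 and 6.77 in air and 6.26, 5.82, 6.15, 6.35 and 6.14 after exposure. Air replicate 2 was among the exposed arrays, and the other 4 air arrays were above all of them (−0.58 ± 0.15, adjusted p = 0.537). Tcp1, a subunit of the chaperonin that folds actin and tubulin, read 6.74, 4.86, 7.40, 6.49 and 6.83 in air and 6.12, 5.46, 5.71, 6.15 and 6.49 after exposure. Its difference was −0.82 ± 0.22 (adjusted p = 0.537) and −0.93 ± 0.21 without air replicate 2 (adjusted p = 0.136), with PEPs replicate 5 level with air replicate 4. Stip1, which hands clients from Hsp70 to Hsp90, read 8.15, 7.46, 8.54, 8.09 and 8.66 in air and 8.14, 7.41, 7.27, 7.71 and 7.18 after exposure. PEPs replicate 1 overlapped with the air arm, and the difference was −0.72 ± 0.21. Hsph1, a nucleotide exchange factor of the Hsp110 family, read 5.62, 6.28, 6.81, 6.48 and 6.70 in air and 6.02, 5.77, 5.48, 5.82 and 4.34 after exposure (−0.76 ± 0.24). For Hsph1 air replicate 1, not replicate 2, was the low air array, and PEPs replicate 5 was by far the lowest exposed array. Dnaja1, an Hsp40 that delivers clients to Hsp70, had the same pair of low arrays, with 7.55 in air replicate 1 and 6.77 in PEPs replicate 5 (−0.56 ± 0.17). Dnajb14 (−0.64 ± 0.19), Bag4 (−0.65 ± 0.25), Hspa9 of mitochondria (−0.34 ± 0.15), Hspa4 (−0.33 ± 0.13) and the chaperonin subunit Cct8 (−0.29 ± 0.13) made up the rest with Bag3. The abundant chaperones Hsp90ab1 (−0.32 ± 0.20) and Hspa5 of the endoplasmic reticulum (−0.20 ± 0.14) did not reach an unadjusted p under 0.05.

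**Figure D4:**
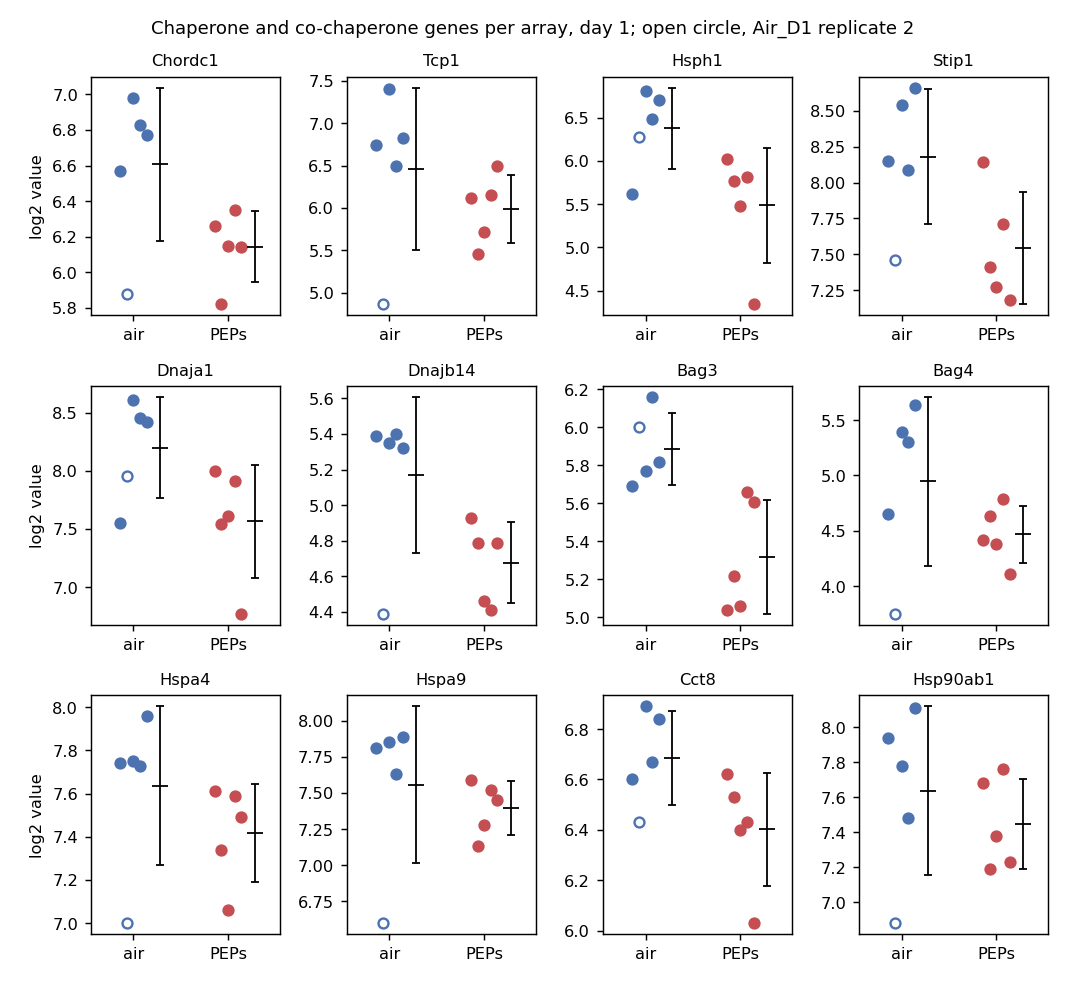
Log2 values of 12 chaperone and co-chaperone genes on each day 1 array, with air in blue, PEPs in red, air replicate 2 as an open circle and bars for the mean ± SD of 5 arrays. Bag3 is the gene whose arms do not overlap (lowest air 5.69, highest exposed 5.66), and in Chordc1, Tcp1, Stip1, Dnajb14, Bag4, Hspa4, Hspa9, Cct8 and Hsp90ab1 the open circle is the lowest air array.

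Promoters are shown for 3 of these 11 genes because they hold, in the 300 bases around the annotated start (250 before and 50 after), the 3-unit heat shock element that Hsf1 binds, and for Gp1ba because it holds letters bound by Gata1, the transcription factor of megakaryocytes. The sequences are from RefSeq (GRCr8), read 5′ to 3′ on the strand of the gene, with matches on either strand in capitals. The heat shock element was searched as GAANNTTCNNGAA, and overlapping matches were allowed. The coordinates are chr8:23650571-23650870 (plus strand) for Chordc1, which has 3 overlapping matches, chr12:10427118-10427417 (plus) for Hsph1, chr5:60638154-60638453 (plus) for Dnaja1 and chr10:55851309-55851608 (plus) for Gp1ba.
Chordc1: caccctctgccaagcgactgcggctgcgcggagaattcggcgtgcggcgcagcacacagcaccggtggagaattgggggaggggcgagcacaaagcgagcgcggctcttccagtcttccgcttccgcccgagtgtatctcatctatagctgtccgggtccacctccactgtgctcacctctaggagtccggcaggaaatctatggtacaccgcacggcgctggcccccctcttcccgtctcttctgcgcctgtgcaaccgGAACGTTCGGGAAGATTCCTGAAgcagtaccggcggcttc
Hsph1: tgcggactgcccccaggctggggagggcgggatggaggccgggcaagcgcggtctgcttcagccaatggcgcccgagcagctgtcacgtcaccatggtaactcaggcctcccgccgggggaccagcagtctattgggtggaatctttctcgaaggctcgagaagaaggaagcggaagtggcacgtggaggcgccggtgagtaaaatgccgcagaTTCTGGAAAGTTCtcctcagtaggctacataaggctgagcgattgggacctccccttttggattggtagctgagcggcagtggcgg
Dnaja1: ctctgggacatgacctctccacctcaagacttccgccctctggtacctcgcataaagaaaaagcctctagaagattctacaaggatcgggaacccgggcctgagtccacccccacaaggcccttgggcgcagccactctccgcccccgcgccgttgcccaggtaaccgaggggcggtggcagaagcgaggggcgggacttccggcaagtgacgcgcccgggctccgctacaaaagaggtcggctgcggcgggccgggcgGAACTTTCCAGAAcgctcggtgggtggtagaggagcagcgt
Gp1ba: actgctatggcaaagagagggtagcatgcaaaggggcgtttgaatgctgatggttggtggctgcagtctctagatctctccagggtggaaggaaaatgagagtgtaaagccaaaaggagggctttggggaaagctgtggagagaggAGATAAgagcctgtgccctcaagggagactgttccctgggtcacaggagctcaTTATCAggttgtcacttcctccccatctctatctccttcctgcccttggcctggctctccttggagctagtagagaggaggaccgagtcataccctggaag

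GAANNTTCNNGAA was found in 202 of 27457 promoters (0.736%) and in 5 of the 43 chaperone genes that have a promoter in the table (11.6%), namely Chordc1, Hsph1, Dnaja1, Hspe1 and Cct4. Among the 10 promoters of the lower genes with an unadjusted p under 0.05 it was found in 3. The Gata letters were searched as AGATAA and TGATAA on both strands, which differ in the first base only and cannot begin at the same place. AGATAA was in 11.3% and TGATAA in 8.89% of all promoters, and each was in 5 of 38 platelet promoters (13.2%), with both in Gp1ba and in Rgs18. A match describes the letters in this window only.

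Set against the other days, in a contrast that contains the day 1 difference itself, the day 1 exposure effect differed from the mean effect of days 5, 9, 13, 17 and 21 for 4 of 34176 probe sets at an adjusted p under 0.05 (0.0117%; limma, 1 contrast over all arrays without telemetry). Chordc1 was the chaperone gene among the 4 probe sets: its effect on day 1 was lower than the mean of the other days by 0.85 (−0.85 ± 0.17, adjusted p = 0.0458). Its fitted differences were 0.46, 0.17, 0.45, 0.29 and −0.01 on days 5, 9, 13, 17 and 21. Pigw had the same sign (−1.21 ± 0.24, adjusted p = 0.0458), with 0.20, 0.77, 0.49, 0.05 and −0.03 on the other days. The olfactory receptor gene Olr220 (1.06 ± 0.21, adjusted p = 0.0458) and the probe set 17629990, which has no gene name here (1.49 ± 0.26, adjusted p = 0.00928), were higher on day 1. Both read near background, with air means of 0.91 and 1.47 and exposed means of 1.82 and 2.50. With equal array weights the adjusted p of Chordc1, Pigw and Olr220 was 0.348, 0.315 and 0.155. With 1 day 1 array left out at a time it was between 0.0144 and 0.328 for Chordc1, between 0.00992 and 0.4 for Pigw and between 0.00131 and 0.363 for Olr220.

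Chordc1 was 1 of 17 of the 49 chaperone genes with a lower effect on day 1 than on the other days at an unadjusted p under 0.05 (5.06% of all genes), and all 11 named above were among the 17. The list was chosen by day 1 values that this contrast contains, so its count is a description only. The medians of the list on the other days were 0.10, 0.08, 0.12, 0.11 and −0.02. T cell genes had a median of −0.36 in the same contrast, with 22 of 22 lower and 11 at an unadjusted p under 0.05 (5.06% of all genes, lower), and medians of 0.13, −0.03, 0.12, 0.13 and 0.11 on the other days. All 22 were already lower in the day 1 values that the contrast contains. Their list was written with earlier results of these data known, so the T cell count is a description only. The 8 platelet adhesion genes had a median of 0.70, with 5 at an unadjusted p under 0.05 (3.45% of genes, higher), a median of 0.51 without air replicate 2, and medians of 0.35, 0.13, −0.06, 0.06 and 0.16 on the other days. The study had picked these 8 by fold on the day 1 values that the contrast contains, so their count too is a description only. Aldh9a1, an aldehyde dehydrogenase, and Fbxo28 were next after the genes that passed (−0.95 ± 0.22, adjusted p = 0.191, and −0.76 ± 0.18, adjusted p = 0.296). Aldh9a1 read 5.94, 5.34, 6.26, 5.87 and 5.88 in air and 5.41, 5.27, 4.45, 5.62 and 4.87 after exposure. The exposed arrays lay below the 4 air arrays other than replicate 2.

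**Figure D5:**
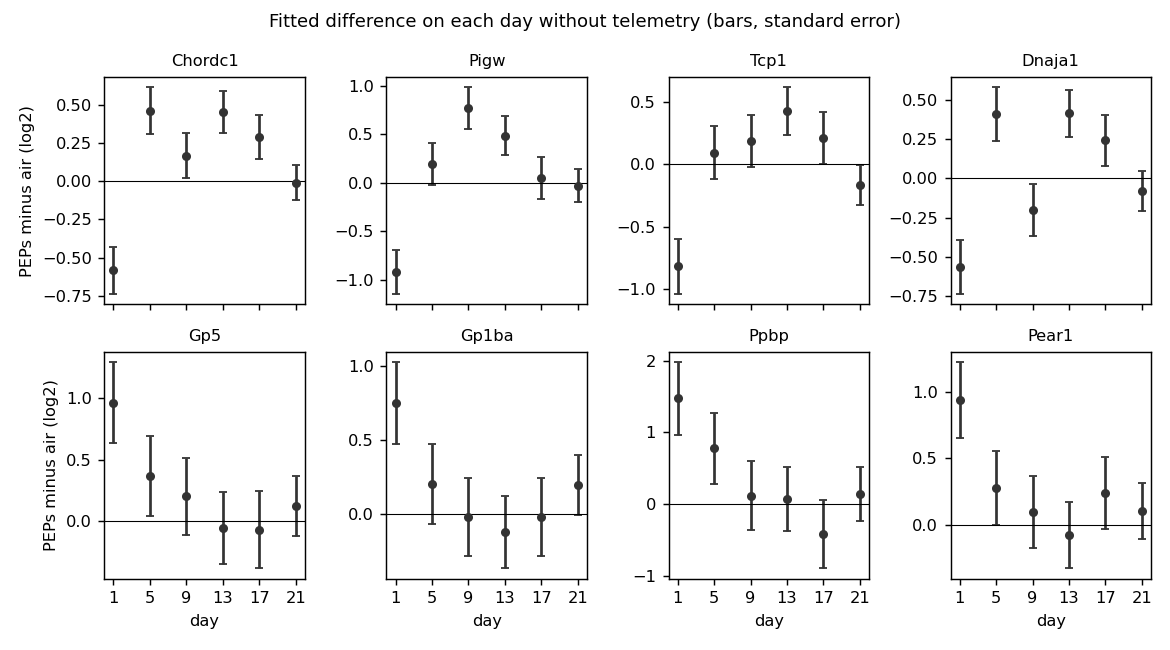
Fitted difference between PEPs and air (log2, points) with its standard error (bars) on each day without telemetry for 4 genes that were lower on day 1 (upper panels) and 4 platelet genes that were higher (lower panels). Chordc1 is at −0.58 on day 1 and between −0.01 and 0.46 on the other days, and Gp5 at 0.96 on day 1 and between −0.07 and 0.37 on the others.

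A set of 52 genes was taken from the published account of day 1 blood, and 38 of them were measured with 1 symbol. They had been selected by fold on these samples, so that their counts are no independent evidence. Of the 38, 30 were higher and 8 lower, and 35 were at 1.5-fold or more here (1.49% of all genes, higher, and 1.02%, lower). An unadjusted p under 0.05 was reached by 28 of the 38 (3.67% of all genes, higher, and 3.72%, lower), and none of them passed after adjustment. Outside the platelet lists, the proton pump subunit Atp6v1f had the lowest value of them, −1.22 ± 0.61. It read 8.55, 6.89, 6.52, 8.72 and 8.20 in air and 6.76, 6.96, 6.93, 6.79 and 5.61 after exposure. The air arrays fell into 3 high and 2 low ones, the latter level with the exposed arrays, and the 17 proton pump genes together had a median of −0.06. Atp6v0e1, another subunit, was at 0.22 ± 0.16. Nme2 (−0.61 ± 0.24) and gephyrin (Gphn, −0.72 ± 0.28) were lower and Loxl3 higher (0.81 ± 0.36).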

How the data were processed

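The members and gene lists were chosen with earlier results of these data known. The deposited log2 values were made by the authors with RMA of the oligo package (R 3.4), which corrects background, equalizes intensity distributions and summarizes probes by set. Biotinylated cDNA, made from 400 ng of total RNA per sample by the labels, was hybridized to Affymetrix Rat Gene ST arrays. The published methods give another amount of RNA and another extraction kit. On arrays no count stands behind a value, and their number limits the precision.

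The fit used limma 3.58.1 (R 4.3.3) over all 69 arrays of 14 groups: 1 mean per group, gene-by-gene array weights, empirical Bayes and Benjamini-Hochberg adjustment over 34176 probe sets, after 2509 with a variance under 0.05 were left out. No batch is given in the labels, so none was fitted. A platform table gave 14824 probe sets 1 symbol, 829 several and 21032 none, and 14670 of the first were found in RefSeq by gene identifier. A gene with several tested sets (207 genes, 82 with opposite signs) took the values of its brightest set by mean. The fit was tested on simulated data. The lower quartile of each array was compared by a 2-sided exact permutation test.

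Named genes were the 10 largest differences in each direction (mean of at least 4, unadjusted p under 0.05, no overlap between arms; skipping pseudogenes, provisional symbols and receptors of the olfactory or vomeronasal kind), the first 3 measured members and the 4 smallest p of each of 40 lists, genes named in the published account, and the 5 smallest p in the test of day 1 against the other days. Promoters came from RefSeq (GRCr8).

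Alternatives were the 10 arrays alone, equal weights, no variance filter, a mean of at least 4, 2-fold or more, cyclic loess, the mean of all probe sets of a gene, a replicate block, olfactory covariates and each array left out. The day 1 arrays alone and equal weights, both without air replicate 2, were chosen after seeing the data.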

Additional observations from a re-analysis of the deposited data

Results flagged for a closer look

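In 62 of 290 tests of a group of 5 arrays, 1 array lay apart from the others by more than Dixon's 95% critical value of 0.71 (its gap to the nearest array over the range of the group). For a single test chance gives about 1 in 20. The 290 tests were made on the same arrays with overlapping lists and genes, so they are not independent and the count is a description only. In 55 of the 62 the array was air replicate 2. It was the low array for the platelet list means, with ratios of 0.815 (adhesion), 0.866 (activation), 0.826 (granule) and 0.836 (cytoskeleton). It was also the low array for the list means of monocytes (0.804), neutrophils (0.73), NF-kB genes (0.787), the circadian clock (0.824), Nrf2 genes (0.807), chemokine receptors (0.826), Toll-like receptors (0.874), eicosanoid enzymes (0.813), leukocyte adhesion (0.735) and the proteasome (0.756). It was the high array for the lower quartile (0.845) and for the olfactory receptor mean (0.75). What sets this array apart was not tested.

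Among single genes air replicate 2 was the low air array for the platelet adhesion genes Gp5 (0.863), Gp9 (0.833), Gp1ba (0.877), Itgb3 (0.8), Cd9 (0.854), Vwf (0.721) and Cd151 (0.791). The same array was low for P2rx1 (0.774), P2ry12 (0.943), Ptgs1 (0.876), Alox12 (0.825), Treml1 (0.875), Mpig6b (0.894), F2rl2 (0.867), Ptpn11 (0.717) and Gucy1a1 (0.763). So it was for Pf4 (0.856), Mmrn1 (0.875), F13a1 (0.922), Nrgn (0.825), Rgs18 (0.919), Vcl (0.728) and Myl9 (0.906), and for Slc6a4 (0.947), Muc20 (0.758), Tmem117 (0.771) and Adgra2 (0.77). Genes of other cells and groups with the same low array were Cd3d (0.823), Cd3g (0.775), Cd5 (0.853), Cd14 (0.742), S100a8 (0.891), Tlr6 (0.829), Dbp (0.72), Nfkbia (0.907), Dnajb14 (0.922), Hspa4 (0.765), Hspa9 (0.8) and Pgap1 (0.72).

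The other 7 cases were exposed arrays. PEPs replicate 5 was the high array for Adgra2 (0.712) and the low array for Pip4k2c (0.736) and Atp6v1f (0.853). PEPs replicate 2 was low for Pigw (0.71) and Cd14 (0.787), PEPs replicate 4 was low for Cd9 (0.829), and PEPs replicate 1 was high for Themis (0.835).

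The exposure effect on day 1 differed from the mean effect of the other 5 days for Chordc1 (−0.85), Pigw (−1.21), Olr220 (1.06) and the unnamed probe set 17629990 (1.49), by the limma contrast of the report.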

How the results depend on the processing

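The count of probe sets that passed on day 1 was 0, and it was 1 with the 10 arrays alone, 1 with those without air replicate 2, 2 with equal weights without air replicate 2, and 0 to 3 with 1 array left out at a time. Those at an unadjusted p under 0.05 numbered 2251, 1190 with a mean of at least 4, and 1900 to 2591 with 1 array left out. Genes at 1.5-fold or more numbered 341, 158 with a mean of at least 4 and 347 to 527 with 1 array left out (527 without PEPs replicate 4), and 16 were at 2-fold or more. Genes without overlap numbered 119, 59 with a mean of at least 4 and 189 to 418 with 1 array left out (418 without air replicate 2), which leaves fewer arrays to overlap. The 4 probe sets in which day 1 differed from the other days became 1 with equal weights, 0 with cyclic loess, 1 with olfactory covariates and 0 to 6 with 1 array left out (0 without air replicate 5 or PEPs replicate 3). The cause was not tested. Of genes at 1.5-fold, 59.5% were higher, 70.6% with equal weights and 45.6% with a mean of at least 4, where the median of all genes was −0.09.

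With 1 array left out the list medians ran from 0.59 to 0.92 (platelet adhesion), 0.36 to 0.69 (activation), 0.31 to 0.61 (granule), 0.36 to 0.62 (cytoskeleton), −0.33 to −0.23 (T cell) and −0.27 to −0.17 (chaperones), the lowest platelet values being those without air replicate 2. With equal weights the platelet medians were 1.34, 1.05, 0.93 and 0.76. Of 103 named genes, 102 kept their sign under every alternative run for them (20 for 92 genes and 1 fewer for 11 genes that a filter left out), and Csf1r was at 0.00526 with equal weights. The filter of a mean of at least 4 left out the dim genes Cxcr1, Errfi1, Gphn, Mapk13, Naip5, Olr220 and Ticam2. Olr220 passed without PEPs replicate 1, 4 or 5 and with the mean of all probe sets. The replicate numbers did not pair the arrays: deviations of same-numbered arrays correlated between −0.076 and 0.028, and a fit with the number as a block gave 0 probe sets that passed and 1534 at an unadjusted p under 0.05.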
